A study of Mus musculus with 4 samples.

Results

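CpG-island regions away from start sites are 594 of the 29121 accessible regions counted in hippocampal neurospheres, 2.04% of the table and 33.2% of its 1788 CpG-annotated regions. They were chosen by the annotation deposited with the count table: the detailed annotation names a CpG island, the distance to the nearest annotated transcription start exceeds 2000 bases, and the region lies on an autosome or X. No measured value enters this rule, though the class was chosen with earlier results of these data known. Accessibility was measured by ATAC-seq, in which the Tn5 transposase inserts sequencing adapters into open chromatin, in 2 Fgf13cko cultures (hGFAPCre+, floxed Fgf13 on the single X of males, Fgf13 flox/y) and 2 control cultures (hGFAPCre+, Fgf13+/y). All came from C57BL/6 mice at P0 and were grown as neurospheres, floating clusters of neural progenitors, for 7 days with FGF2 at 20 ng/ml and EGF. Both groups carry the hGFAP-Cre transgene, which drives Cre from the human GFAP promoter in radial glia and their descendants. The labels do not state the floxed exon. They say that the cells of 1 mouse filled a pair of wells, but do not tie cultures to mice, so the p-values below reflect only how far these samples spread, part of which may be technical.

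CpG islands are stretches of DNA in which the CpG dinucleotide has been kept, while in most of the mammalian genome it is methylated and depleted. Many islands lie over promoters, where unmethylated CpGs bind CXXC-domain proteins and, in silent developmental genes, Polycomb complexes. Islands away from annotated promoters, called orphan islands, are in mouse and human often alternative promoters, starts of non-coding RNAs or parts of enhancers. The 594 regions are called orphan islands below by the table's annotation.

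The label of the class was checked against RefSeq start sites (GRCm38.p6, the assembly of the mm10 build of the table). A RefSeq start lay inside 101 of the 577 regions that the start table covers (17.5%), against 74.0% of the CpG-island regions within 2000 bases of a start in the deposited annotation and 2.24% of the other regions away from starts. In 29 of the 101 the start belonged to the gene that the table names as nearest, so the region covers an alternative start of that gene, and in 72 to another gene. The first RefSeq gene starting there was protein-coding in 59 and a long non-coding RNA gene in 42. The distance in the table thus does not hold for every RefSeq transcript, and 127 of the 577 had a RefSeq start within 2000 bases. Nearest genes, distances and gene groups below follow the table. At some named regions a RefSeq start lay closer than the start of the named gene.

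The start windows printed here come from RefSeq and run 250 bases before to 50 bases after the start, 5′ to 3′, with every CpG in capitals. They were picked after the values of the regions were known. Both regions that rose in Fgf13cko and hold a RefSeq start are shown, followed by the other Hip1 start for comparison and a start inside a region with one of the 6 highest counts. Hip1, which encodes a clathrin adaptor that binds huntingtin, has an inner start at chr5:135489180-135489479 (minus strand), inside the region that rose, with 28 CpGs and 71.7% G+C.
Hip1 inner start: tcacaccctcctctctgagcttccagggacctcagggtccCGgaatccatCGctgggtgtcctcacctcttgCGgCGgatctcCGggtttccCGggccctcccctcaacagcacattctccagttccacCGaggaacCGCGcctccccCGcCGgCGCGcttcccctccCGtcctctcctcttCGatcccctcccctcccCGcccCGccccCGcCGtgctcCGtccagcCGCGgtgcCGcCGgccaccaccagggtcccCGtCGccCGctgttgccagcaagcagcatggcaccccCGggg
The start of the non-coding gene Gm9222 at chr12:17881623-17881922 (plus strand) lies inside the risen region whose nearest gene in the table is Hpcal1, and it has 23 CpGs and 67.7% G+C.
Gm9222 start: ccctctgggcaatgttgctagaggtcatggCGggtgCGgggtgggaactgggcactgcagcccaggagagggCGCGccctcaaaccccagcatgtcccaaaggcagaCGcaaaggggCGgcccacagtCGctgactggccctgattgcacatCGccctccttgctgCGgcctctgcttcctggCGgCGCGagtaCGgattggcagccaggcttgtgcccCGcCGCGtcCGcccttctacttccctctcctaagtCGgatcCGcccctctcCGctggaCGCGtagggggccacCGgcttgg
The outer Hip1 start at chr5:135545073-135545372 (minus strand) lies under an ordinary promoter region, with 20 CpGs and 64.0% G+C.
Hip1 outer start: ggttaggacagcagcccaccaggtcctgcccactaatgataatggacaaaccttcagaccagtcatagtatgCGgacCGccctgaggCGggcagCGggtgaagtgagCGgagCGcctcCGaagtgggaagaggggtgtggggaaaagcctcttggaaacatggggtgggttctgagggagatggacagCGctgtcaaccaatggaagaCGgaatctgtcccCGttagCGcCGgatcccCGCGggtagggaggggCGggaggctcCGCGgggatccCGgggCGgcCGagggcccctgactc
A start of Fbrs, the fibrosin gene, at chr7:127478708-127479007 (plus strand) lies inside one of the most accessible orphan islands, with 19 CpGs and 62.0% G+C.
Fbrs start: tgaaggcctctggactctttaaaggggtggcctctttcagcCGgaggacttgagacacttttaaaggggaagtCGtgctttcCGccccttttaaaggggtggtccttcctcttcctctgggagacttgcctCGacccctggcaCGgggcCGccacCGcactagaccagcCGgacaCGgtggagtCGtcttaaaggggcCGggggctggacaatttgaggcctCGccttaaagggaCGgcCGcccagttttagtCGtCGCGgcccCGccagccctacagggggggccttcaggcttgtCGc

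Over the 136 RefSeq start windows whose start falls in an orphan-island region, the median G+C content was 64.7%, against 63.0% for the 999 windows in CpG-island regions near starts and 52.7% for all 32851 windows. CpG content follows from the annotation that chose the regions and is given only to describe them. The GC box, GGGCGG on either strand, occurred in 70.6% of the 136 windows, 75.8% of the windows in CpG-island regions near starts, 68.0% of those in other regions near starts and 35.7% of all windows. The TATA box, TATAAA on either strand, occurred in 2.94% of the 136 and 13.6% of all windows, CCAAT on either strand in 31.6% and 37.4%, and the E-box CACGTG, which is its own complement, in 14.0% and 7.15%, with 11.5% in CpG-island regions near starts and 10.3% in other regions near starts. The GC box and the E-box each contain a CpG, and these shares are descriptions of letters, not of binding. All 4 printed windows contain a GC box, none contains TATAAA or CACGTG, and CCAAT is present in the outer Hip1 window and the Gm9222 window.

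The libraries held 16.8 and 13.1 M tags for Fgf13cko 1 and 2, against 24.9 and 26.0 M for control 1 and 2. Mitochondrial regions took 9.54% and 9.19% of all tags in Fgf13cko and 23.4% and 27.0% in controls, and nuclear regions held between 2.55 and 3.24 M tags in each library. The labelled cell type was checked at promoters: 9 of 10 neural progenitor markers, Emx2 being the exception, had a counted region at their start, and 0 of 5 genes of liver, T cells, heart, islet and red cells did. The targeted gene has 4 regions in the table, none of them in the class described here and none past the test (adjusted p between 0.0848 and 0.96, edgeR). Since the floxed exon is not given, they do not check the genotype.

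Each orphan-island region carries a peak in all 4 deposited peak lists, and 443 were annotated intergenic and 151 intronic. Their width ran from 300 to 2925 bases, with a median of 884.5, and their distance to the nearest start in the table from 2030 to 873131 bases, with a median of 19783. They named 546 nearest genes, 39 of them more than once. The tag share of the class was 2.05% and 1.96% of nuclear region tags in Fgf13cko 1 and 2, and 2.15% and 2.16% in control 1 and 2, and the median region held 61.5 and 63.5 tags in Fgf13cko and 74 and 82 in controls. Normalised counts below are tag counts scaled by TMM, which sets library sizes so that most regions centre on no change. The median region of the class had a mean normalised count of 73.2, which is between the 48.9 of the other regions away from starts and the 103 of CpG-island regions near starts. The authors' fold enrichment over local background had class medians of 4.87 and 4.79 in the Fgf13cko lists and 4.77 and 4.99 in the control lists. Of the 594 regions, 577 passed the filter on low counts and were tested. The 17 untested ones held at most 17.5 tags in a library, and 3 held none.

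Few orphan islands differed between Fgf13cko and control neurospheres, and rises and falls were close in number. Of the 577 tested, 10 were higher in Fgf13cko (1.73%), against a background of 6.2% of all 28801 tested regions, and 7 were lower (1.21%), against a background of 1.64% (edgeR quasi-likelihood test, two-sided, Benjamini-Hochberg adjusted p under 0.05 over all regions). Among the 16208 other regions away from starts, 1594 were higher (9.84%) and 363 lower (2.24%). Shares like those of the orphan islands were found in the 10807 other regions near starts, at 1.62% higher and 0.82% lower. Among the 1186 CpG-island regions near starts, 7 were higher and 6 lower. The split of the class moved with the scaling, to 9 higher and 9 lower with DESeq2 size factors, 8 and 10 with TMM on nuclear regions only, and 12 and 33 with a loess offset on abundance. The difference between classes was not tested and is given as counts.

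**Figure D1:**
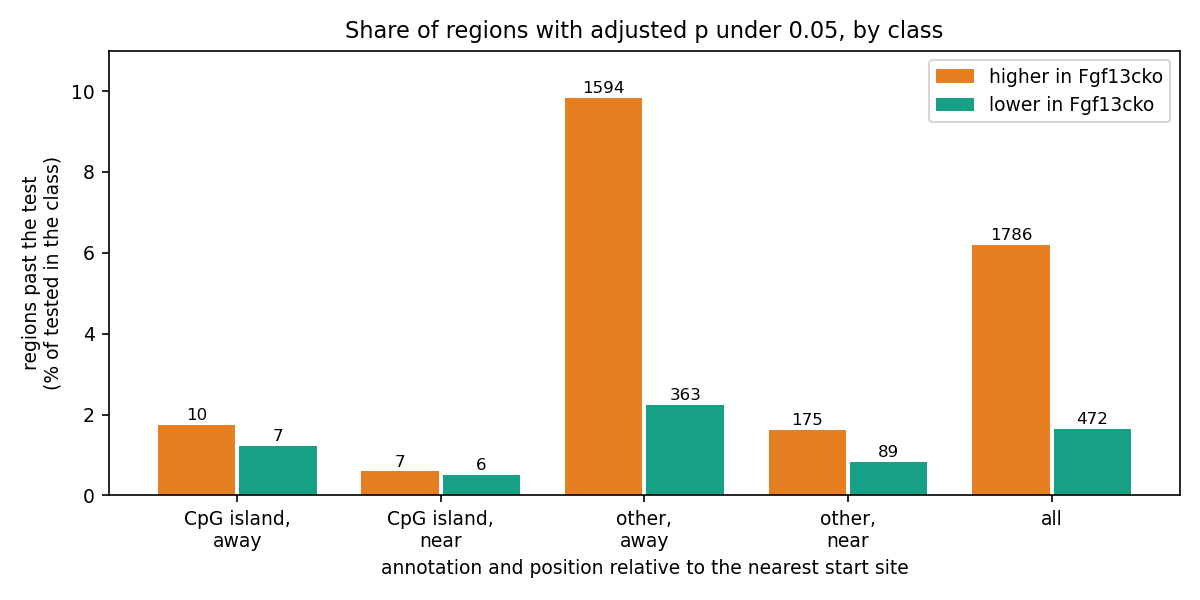
Share of tested regions past the test (y axis, percent, from 0) in each class of regions (x axis), with the number of regions above each bar and higher (orange) left of lower (green) calls. The bars for CpG-island regions away from starts stand at 1.73% and 1.21%, and those for other regions away from starts at 9.84% and 2.24%.

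The median log2 fold change, Fgf13cko over control, was -0.08 over the orphan islands (quartiles -0.38 and 0.22), -0.05 over CpG-island regions near starts, -0.07 over the other regions near starts, 0.10 over the other regions away from starts and 0.00 over all regions. Both Fgf13cko libraries lay above both controls at 114 of the 577 (19.8%), against a background of 28.5%, and below both at 173 (30.0%), against a background of 25.2%. In the other regions near starts these shares were 20.0% and 29.5%. Shares of calls among the more abundant regions were set side by side too. Of those with a mean normalised count of at least 50, 14 of 405 orphan islands passed (3.46%), against 1800 of 7885 other regions away from starts (22.8%). Between replicates, a typical orphan island differed by 0.36 (median absolute log2 difference) in Fgf13cko and by 0.19 in controls, so the Fgf13cko pair was the less precise. Of 48 neuronal marker genes, 29 had a counted promoter, of which 6 were higher in Fgf13cko, none was lower and 23 did not pass, beside 1.62% higher among other regions near starts, with summed normalised counts of 5046 and 4202 in Fgf13cko against 3531 and 3728 in controls. None of the orphan islands has a gene of that list as its nearest gene, and the part that a different mix of cells plays in the results was not tested. In bulk chromatin, more cells with an open region and a more open region in each cell cannot be told apart.

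**Figure D2:**
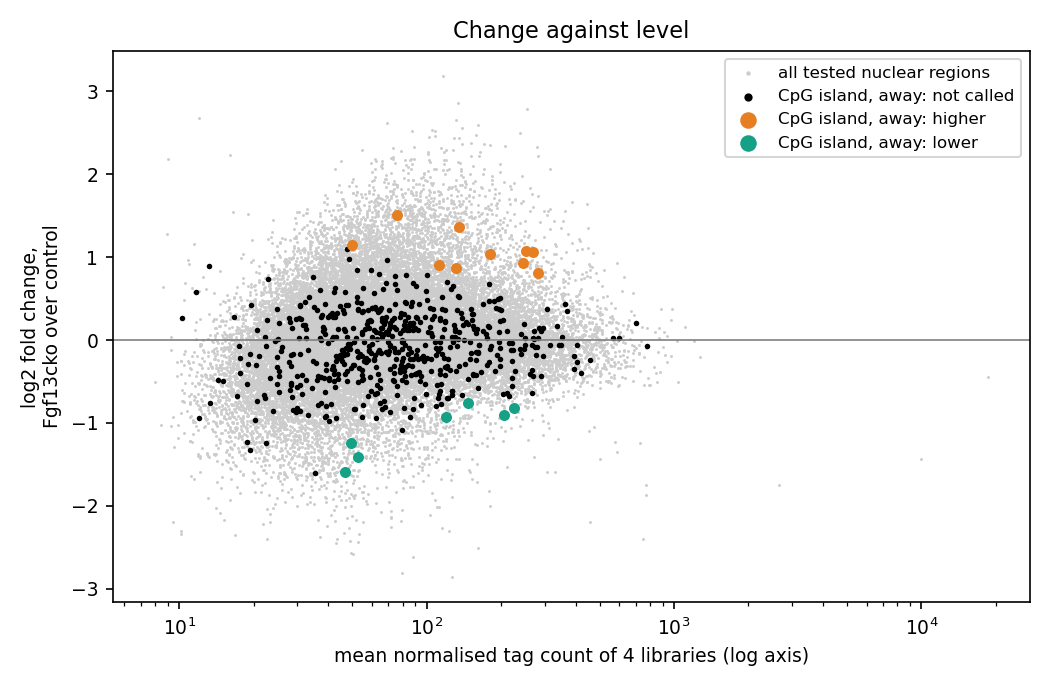
Log2 fold change, Fgf13cko over control (y axis), against the mean normalised tag count of the 4 libraries (x axis, log scale), for all tested nuclear regions (grey) and the 577 orphan islands (black, with the 10 higher in orange and the 7 lower in green). The orphan islands lie within the grey cloud, with quartiles at -0.38 and 0.22, and the largest called changes are 1.51 and -1.60.

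Of the 10 regions that rose, the clearest by adjusted p was an intronic one 2.9 kb from the start of the non-coding gene Gm10421 (chr12:117153295-117155032). It held normalised counts of 215.7 and 172.9 in Fgf13cko against 78.8 and 72.3 in controls (log2 fold change 1.36, SE 0.21, adjusted p = 0.00764, edgeR). The intergenic region 29.3 kb from 9530052E02Rik (chr8:10978064-10978955) had the largest rise, with 116.5 and 108.2 in Fgf13cko against 43.4 and 35.7 in controls (1.51, SE 0.24, adjusted p = 0.00864, edgeR). In both regions the gap between the groups was wider than that within either pair, which choice by a test on these same counts favours. These regions, and one 108.1 kb from 1700044C05Rik (76.1 and 61.5 in Fgf13cko, 31.5 and 30.6 in controls, log2 fold change 1.14), lie nearest to predicted genes and were named after their values were seen. With the one at Mir9-3hg, 4 of the 10 risen regions had a non-coding RNA gene nearest.

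Among the risen regions nearest to genes of known function, the one 5.5 kb upstream of Sirt4, a mitochondrial sirtuin gene (chr5:115489228-115490781), held 382.9 and 304.4 in Fgf13cko and 155.7 and 170.1 in controls (log2 fold change 1.07, adjusted p = 0.0150, edgeR). The region 23.6 kb from Rgs3, a regulator of G-protein signalling (chr4:62582610-62584219), held 253.7 and 233.4 in Fgf13cko and 114.3 and 121.6 in controls (1.04, adjusted p = 0.0122, edgeR). The groups do not overlap here either, as in every called region, which choice by the test favours. The region over the inner Hip1 start printed above (chr5:135488523-135490181) held 457.9 and 271.6 in Fgf13cko and 155.7 and 192.3 in controls (1.06, SE 0.27, adjusted p = 0.0464, edgeR). Its Fgf13cko libraries differ more from each other than in any other risen region, and the lower of them is still above both controls. At the outer Hip1 start, the region chr5:135545052-135545752 held 404.8 and 559 in Fgf13cko and 732.2 and 689.1 in controls (-0.56, adjusted p = 0.172, edgeR), which did not pass. The difference between the starts of Hip1 was not tested.

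The region over the Gm9222 start printed above, 191.3 kb from Hpcal1, a neuronal calcium sensor gene, held 346 and 297 in Fgf13cko and 179.4 and 158.2 in controls (log2 fold change 0.93, adjusted p = 0.0218, edgeR). The region 12.3 kb upstream of Cbx8, which encodes a chromodomain subunit of Polycomb repressive complex 1, held 164.9 and 176.1 in Fgf13cko and 89.7 and 97.0 in controls (0.87, adjusted p = 0.0265, edgeR). Laptm5 encodes a lysosomal membrane protein of blood and microglial cells, and a region 51.5 kb upstream of it held 155.7 and 137.9 in Fgf13cko and 76.9 and 80.0 in controls (0.90, adjusted p = 0.0271, edgeR). Of 13 microglial marker genes, 1 had a counted promoter region, with 11.5 and 21.2 in Fgf13cko and 39.4 and 27.2 in controls. Mir9-3hg is the host transcript of a miR-9 gene, a microRNA of neural progenitors. The region 20.4 kb downstream of its start held 392.1 and 322.5 in Fgf13cko and 205.0 and 204.2 in controls (0.80, adjusted p = 0.0380, edgeR), while a second orphan island 3.8 kb upstream held 9.23 and 63.7 in Fgf13cko and 51.3 and 51.0 in controls and did not pass.

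**Figure D3:**
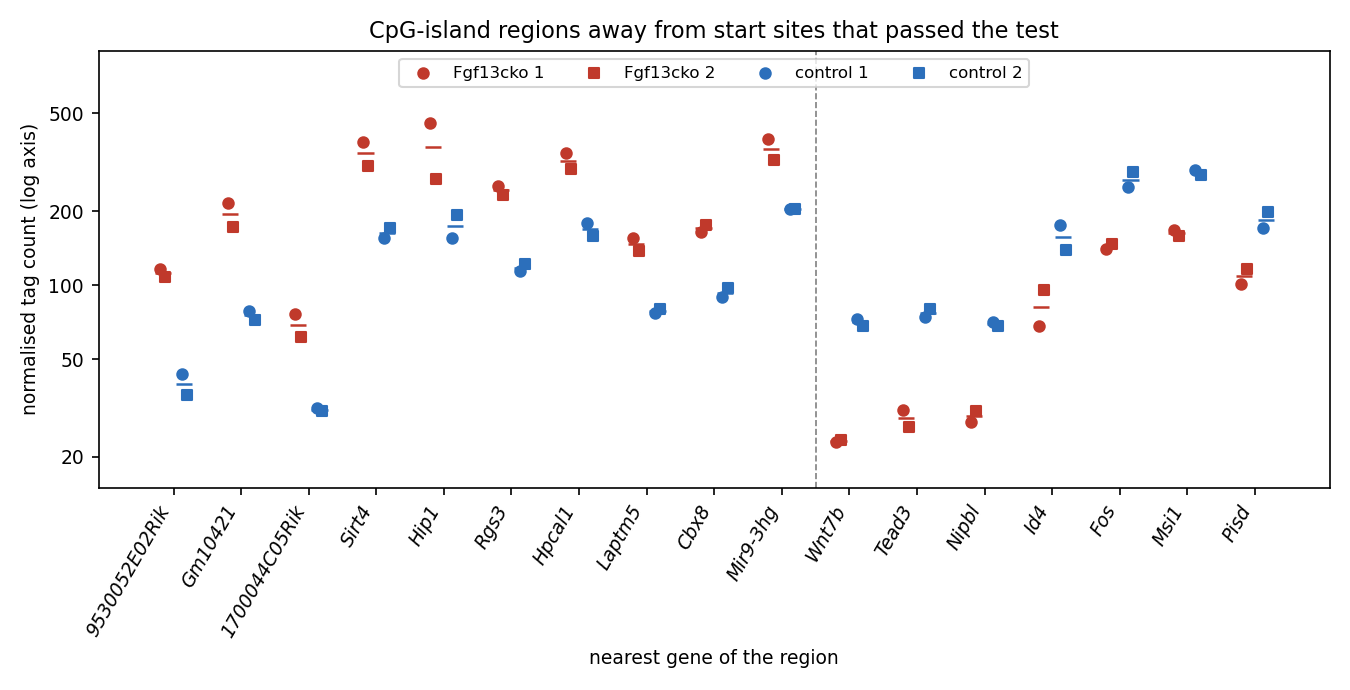
Normalised tag counts (y axis, log scale) of the 17 orphan islands past the test, by nearest gene (x axis), with Fgf13cko libraries (red) left of controls (blue), circles for replicate 1, squares for replicate 2 and short lines for group means. The groups do not overlap in any of the 17, which choice by a test on these same counts favours. The 10 on the left are higher and the 7 on the right lower in Fgf13cko under TMM scaling. With scaling by library size alone (tags in the tested regions, mitochondrial ones included), those at Fos, Msi1, Id4 and Pisd are not lower.

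The 7 regions that fell include 2 nearest to genes of neural stem cells and 1 nearest to a Wnt ligand gene. The largest fall was 44.3 kb upstream of Wnt7b (chr15:85625714-85626515), where the counts were 23.1 and 23.3 in Fgf13cko against 72.9 and 68.1 in controls (log2 fold change -1.60, SE 0.30, adjusted p = 0.0153, edgeR). The closest RefSeq start to this region was 8482 bases away. A neighbouring orphan island 53.0 kb upstream of Wnt7b, over a start of the non-coding gene D130051D11Rik, held 214.5 and 242.9 in Fgf13cko and 306.5 and 313.1 in controls (-0.44, adjusted p = 0.196, edgeR). Both lie below the controls in each library, and the nearer one passed. Tead3 encodes a DNA-binding partner of the Hippo coactivators, and an intronic region 9.1 kb from its start (chr17:28340926-28341601) held 31.1 and 26.5 in Fgf13cko and 73.9 and 80.0 in controls (-1.42, adjusted p = 0.0186, edgeR). Nipbl encodes the cohesin loader, and a region 124.8 kb from its start (chr15:8568910-8569617) held 27.7 and 30.8 in Fgf13cko and 71.0 and 68.1 in controls (-1.24, adjusted p = 0.0323, edgeR). A RefSeq start lay 13380 bases from that region.

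The remaining falls were smaller. The region in an intron 7.1 kb from the start of Msi1, the RNA-binding protein Musashi of neural stem cells (chr5:115436284-115437244), held 167.2 and 159.1 in Fgf13cko and 294.7 and 280.7 in controls (log2 fold change -0.82, adjusted p = 0.0275, edgeR). The region 33.4 kb from Id4, an inhibitor of proneural factors (chr13:48227753-48228383), held 68.0 and 95.5 in Fgf13cko and 175.4 and 138.7 in controls (-0.93, adjusted p = 0.0467, edgeR). The Fgf13cko libraries differ at Id4, and the groups do not overlap, as in every called region. Fos encodes a subunit of the AP-1 factor, and the region 12.2 kb downstream of its start held 140.7 and 146.4 in Fgf13cko and 250.3 and 287.5 in controls (-0.91, adjusted p = 0.0212, edgeR). Its other orphan island, 18.4 kb upstream, held 440.6 and 354.3 in Fgf13cko and 417.9 and 407.5 in controls, with overlapping groups. The region 32.3 kb from Pisd, which encodes a mitochondrial phosphatidylserine decarboxylase, held 101.5 and 116.7 in Fgf13cko and 171.5 and 198.2 in controls (-0.76, adjusted p = 0.0491, edgeR). Its closest RefSeq start was 19582 bases away.

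Without either control the folds stayed close to those given but most calls were lost. The fit then held a single control library, with its error taken from the Fgf13cko pair. Why the calls were lost was not tested. The log2 fold changes of the 17 regions were between 0.813 and 1.18 times those with all libraries, for example 1.42 and 1.30 at Gm10421 without control 1 and without control 2, and -1.55 and -1.65 at Wnt7b. Without control 1, only the 9530052E02Rik region still passed and without control 2 none did, with 32 and 40 regions of the class at an unadjusted p under 0.05 in edgeR, while all 17 still passed without Fgf13cko 1 and without Fgf13cko 2. With no scaling but library size, the median of all regions moved to 0.97, 346 orphan islands rose and 0 fell. The regions at Fos, Msi1, Id4 and Pisd changed sign, as did most regions named below with lower values and no call. Library size here is the sum of tags in the tested regions, mitochondrial ones included. Mitochondrial regions held 38.5% and 31.5% of counted region tags in Fgf13cko 1 and 2, and 67.7% and 68.4% in control 1 and 2. The part of this share in the shift was not tested. In the DESeq2 Wald test 7 rose and 4 fell, the regions at Cbx8, Laptm5, 1700044C05Rik, Nipbl, Id4 and Pisd not passing.

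The gene groups below are small, and their lists were chosen with earlier results of these data known. Their counts stand against 6.2% of all tested regions higher, 1.64% lower and 50.1% with a lower mean. Among stem and radial glial genes, 2 of 8 tested regions fell (Msi1 and Id4) and none rose, with a median log2 fold change of -0.49 and 7 of 8 with a lower mean in Fgf13cko. These counts are descriptions under TMM scaling, beside a median of 0.00 over all regions, and both falls change sign when library size alone sets the scale. Id3, like Id4 an inhibitor of helix-loop-helix factors, has orphan islands on both sides. The one 4.1 kb downstream held 40.4 and 55.2 in Fgf13cko and 71.0 and 98.7 in controls (-0.83, adjusted p = 0.118, edgeR), with groups that do not overlap, and the one 8.5 kb upstream held 113 and 84.9 in Fgf13cko and 151.8 and 102.1 in controls, which overlap.

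Among 12 regions nearest to signalling genes, 1 fell (Wnt7b), none rose, and the median log2 fold change was -0.41. The region 90.7 kb upstream of Nrg1, which encodes the ErbB ligand neuregulin, held 214.5 and 146.4 in Fgf13cko and 257.2 and 269.7 in controls (-0.55, adjusted p = 0.175, edgeR). Its closest RefSeq start was 641198 bases away. The region 2.2 kb from Ptch1, the Hedgehog receptor gene, held 101.5 and 127.3 in Fgf13cko and 145.9 and 151.4 in controls (-0.38, adjusted p = 0.308, edgeR). Neither passed, although both sit below the controls in each library. All 4 regions nearest to axon guidance genes had lower means in Fgf13cko and none passed, with a median of -0.54. The region 12.9 kb upstream of the netrin ligand gene Ntn1, over a start of Gm31954, held 30.0 and 28.6 in Fgf13cko and 53.2 and 59.6 in controls (-0.94, adjusted p = 0.105, edgeR). That near the netrin receptor gene Unc5a held 27.7 and 25.5 in Fgf13cko and 53.2 and 48.5 in controls (-0.93, adjusted p = 0.131, edgeR). The ephrin receptor gene Epha7 and the semaphorin gene Sema6a had overlapping groups.

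Genes of Polycomb, chromatin remodelling and CpG-island reading complexes were nearest to 13 tested regions, of which 1 rose (Cbx8) and none fell, with a median log2 fold change of -0.23 and 9 lower. The 1 rise of 13 is close to the background share, and no region with a lower mean passed. Arid1a encodes a subunit of the BAF remodelling complex, and a region 60.3 kb upstream held 188.0 and 142.1 in Fgf13cko and 237.5 and 275.6 in controls (-0.64, adjusted p = 0.101, edgeR). A RefSeq start lay 38126 bases from that region. Jarid2 encodes a cofactor of Polycomb repressive complex 2, and a region 2.4 kb into it held 57.7 and 44.6 in Fgf13cko and 79.8 and 68.9 in controls (-0.54, adjusted p = 0.260, edgeR). The promoter region of Jarid2 itself did fall (-0.70, adjusted p = 0.0466, edgeR). Of 2 orphan islands nearest to Bcor, a gene of a variant Polycomb complex, 1 lay 73.6 kb from its start and 4767 bases from a RefSeq start. That region held 69.2 and 53.0 in Fgf13cko and 71.9 and 98.7 in controls (-0.49, adjusted p = 0.320, edgeR).

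The largest gene group was that of patterning transcription factors, with 14 tested regions, no call in either direction and a median log2 fold change of 0.02, close to the median of all regions. Its member with the smallest p was near Zic4, a zinc finger factor of the dorsal neural tube, with 30.0 and 43.5 in Fgf13cko and 76.9 and 55.3 in controls (-0.84, adjusted p = 0.160, edgeR). Regions near Tbx2 (-0.22) and Nr2f1 (0.33), both developmental factors, did not pass either. The imprinted genes Sfmbt2 (-0.44) and Cdkn1c (-0.33) had 1 region each, with overlapping groups. The neurogenic list had 1 region, 14.0 kb upstream of Btg2, an antiproliferative gene of neurogenic progenitors, and 2040 bases from a RefSeq start. That region held 62.3 and 60.5 in Fgf13cko and 96.6 and 83.4 in controls (-0.55, adjusted p = 0.189, edgeR). The lists of protocadherin, neuron, astrocyte, oligodendrocyte, microglia, endothelial, meningeal and ependymal genes held no gene nearest to an orphan island.

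The 6 orphan islands with the highest counts did not pass in either direction. The highest was 65.0 kb from the zinc finger gene Zfp958 (chr8:4677346-4678950) and 13342 bases from a RefSeq start, with 855.7 and 665.1 in Fgf13cko and 766.7 and 833.7 in controls. The region 75.7 kb from the non-coding gene D330050G23Rik held 853.4 and 647.1 in Fgf13cko and 589.3 and 709.5 in controls. In both, the Fgf13cko libraries straddle the controls or overlap them. The region over the Fbrs start printed above held 647 and 555.9 in Fgf13cko and 611 and 575.1 in controls (log2 fold change 0.02, SE 0.20), and the one 8.9 kb upstream of the forkhead gene Foxj2 held 615.9 and 530.4 in Fgf13cko and 514.4 and 607.4 in controls (0.03, SE 0.20). In both, the groups overlap. The region 2.1 kb from the nuclear receptor gene Nr4a3 held 424.4 and 415.8 in Fgf13cko and 486.8 and 503.6 in controls. The one 309.1 kb from Pcmtd1, over a start of Gm26901, held 412.9 and 316.1 in Fgf13cko and 478.0 and 482.3 in controls. Both regions lay below both controls without passing (adjusted p = 0.502 and 0.295, edgeR).

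By distance to the nearest start, the median log2 fold change was -0.22 at 2 to 5 kb (104 regions, 71 lower), -0.08 at 5 to 20 kb (184 regions), -0.08 at 20 to 100 kb (239 regions) and 0.16 beyond 100 kb (50 regions, 13 lower). The value beyond 100 kb rests on Fgf13cko 1: the median normalised counts of that bin were 101.5 and 68.9 in Fgf13cko 1 and 2 and 73.4 and 68.9 in control 1 and 2, and without Fgf13cko 1 its median log2 fold change was -0.07, with 28 of 50 lower. Without that library the nearest bin stood at -0.17. The nearest bin had 1 rise and no fall, and the farthest 2 rises (4.0%) and 1 fall (2.0%), near the 6.2% and 1.64% of all regions. The bins were described after the values were seen and their differences were not tested. Regions holding a RefSeq start had a median of -0.05, with 2 rises and no fall among 98 tested, and those without one a median of -0.08, with 8 rises and 7 falls among 462. Intergenic regions had a median of -0.06 and intronic ones of -0.13. Where the nearest gene was a non-coding RNA gene, 4 of 79 rose (5.06%, near the 6.2% of all regions) and none fell (median 0.04), and where it was protein-coding, 6 of 492 rose (1.22%) and 7 fell (1.42%, median -0.09).

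**Figure D4:**
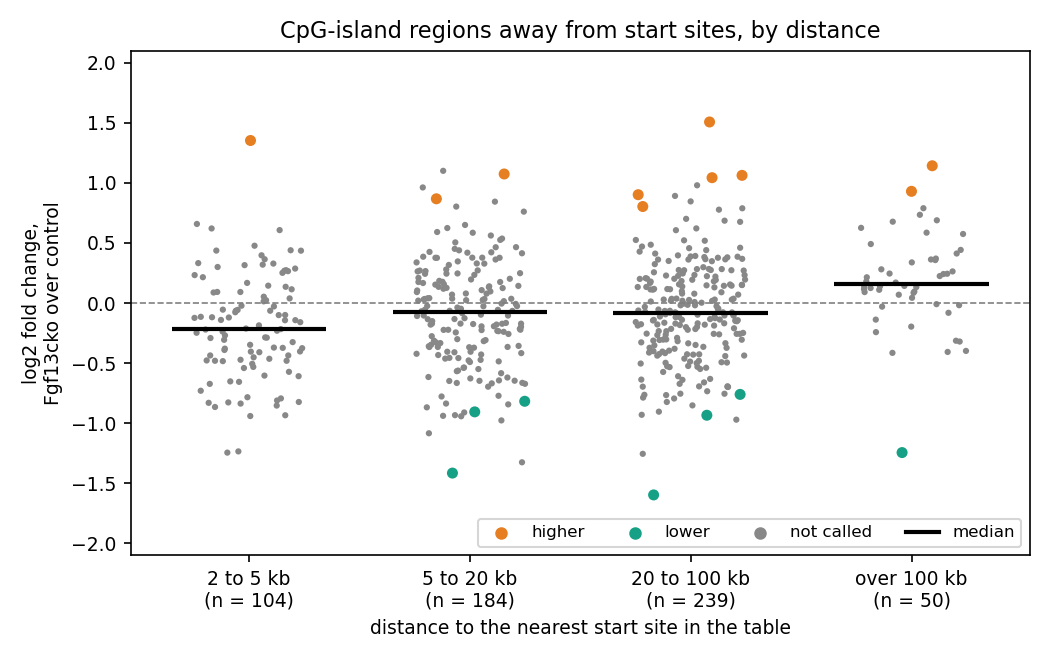
Log2 fold change, Fgf13cko over control (y axis), of the tested orphan islands in 4 bins of distance to the nearest start in the table (x axis, number of regions below each bin), with the median as a black line, higher calls in orange and lower calls in green. The median is -0.22 at 2 to 5 kb and 0.16 beyond 100 kb, where it is -0.07 without Fgf13cko 1.

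At the distance limit itself, the nearest region inside was 2030 bases from Sema6a, with 203.0 and 178.2 in Fgf13cko and 188.2 and 219.5 in controls. The nearest region outside was 1985 bases from Nsd1, with 136.1 and 94.4 in Fgf13cko and 137.0 and 102.1 in controls. The 9 regions between 2000 and 2200 bases had a median log2 fold change of -0.11 and the 12 between 1800 and 2000 bases one of -0.17. RefSeq start windows were not used for the 17 regions on chromosome 18, so the 577 regions checked against RefSeq starts are not the same set as the 577 tested.

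Orphan islands were compared with the promoter region, within 1000 bases of the start, of the gene nearest to them. For 281 of the 577 tested regions such a promoter was tested, at 262 genes. The orphan island held less than the promoter in most, with a median ratio of normalised counts of 0.647, and more in 97. The log2 fold changes of region and promoter were weakly related across the 281 (Pearson r = 0.16, Spearman rho = 0.15, with both values taken from the same 4 libraries), which is a description. At the 262 genes, promoters rose at 4 and fell at 4, and no region and its promoter were both called. With so few calls on either side, the lack of a joint call cannot show whether regions and promoters change together. Of the 17 called regions, 11 had a tested promoter. At Sirt4, for example, the region rose while the promoter held 18.5 and 50.9 in Fgf13cko and 59.1 and 46.8 in controls, and at Fos the region fell while the promoter held 295.2 and 212.2 in Fgf13cko and 368.6 and 359.8 in controls (-0.52, adjusted p = 0.182, edgeR). At Rgs3 the promoter held 38.1 and 39.3 in Fgf13cko and 42.4 and 35.7 in controls, with overlapping groups.

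**Figure D5:**
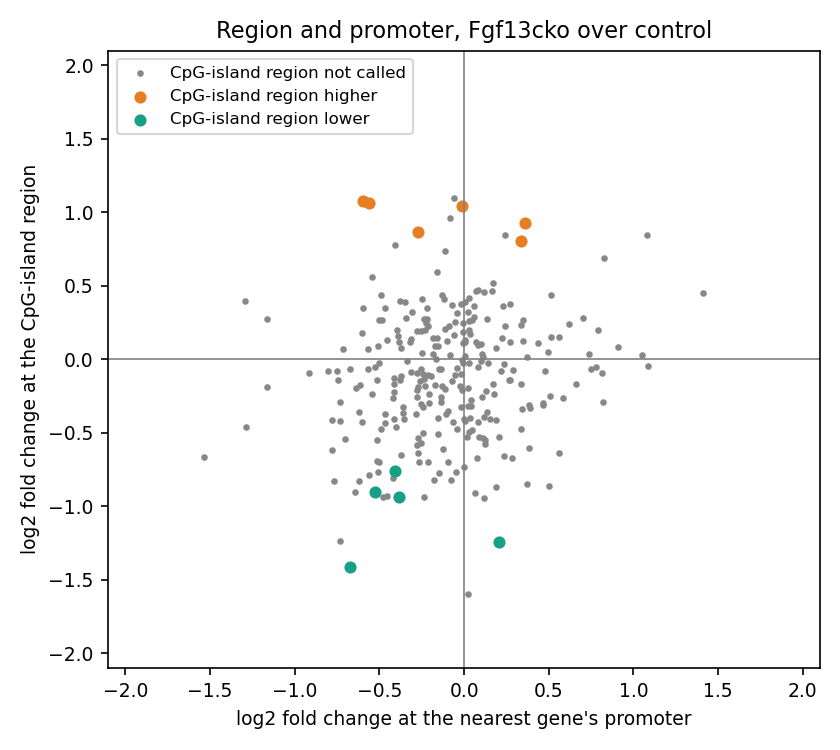
Log2 fold change, Fgf13cko over control, of 281 orphan islands (y axis) against that of the promoter region of the nearest gene (x axis), with called orphan islands in orange (higher) and green (lower). The points form a broad cloud (Pearson r = 0.16). The 11 called regions shown have promoters that did not pass, and at the 262 genes only 4 promoters rose and 4 fell.

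Most regions within 50 kb of the called orphan islands did not pass the test. Most tested regions anywhere did not, with 6.2% of all of them higher and 1.64% lower. Exceptions were Gm10421, where 3 of 4 neighbours rose (median log2 fold change 1.69), and the inner Hip1 start, where 2 of 2 rose (1.77). Of 8 neighbours at Mir9-3hg (median 0.39) and 4 at Laptm5 (median 0.63), 1 rose at each. The Fos region had 5 neighbours (median -0.36), of which 1 rose and 1 fell. At the other called regions no neighbour passed, and the region near Hpcal1 had no neighbour in the table within that distance. At the other falls, medians were -1.13 over 1 at Nipbl, -0.88 over 2 at Id4 and -0.60 over 3 at Msi1. They were -0.52 over 3 at Tead3, -0.26 over 2 at Pisd and 0.13 over 9 at Wnt7b. At the other rises, medians were 0.42 over 5 at 9530052E02Rik and 0.35 over 2 at 1700044C05Rik. They were 0.1 over 5 at Sirt4, 0.04 over 4 at Rgs3 and -0.22 over 5 at Cbx8. Whether neighbours move with the called regions was not tested.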

How the data were processed

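The authors deposited a table of estimated counts, HOMER tag counts per merged broad peak without normalisation, per the file headers, and 1 peak list per sample. Counts are multiples of 0.5 (50.2% whole) and were rounded to whole numbers before testing. The peak lists give a fold enrichment over local background (a ratio) and a -log10 q, the authors' values per the deposited lists. The build is mm10, and Bowtie2, Picard, MACS2, DESeq2 and HOMER are named in the submitters' processing notes; their versions, the transposase shift and duplicate handling are each not given in the sources used here.

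All 4 libraries entered 1 fit over 29121 regions with edgeR 4.0.16 in R 4.3.3 (TMM, filterByExpr, robust glmQLFit, glmQLFTest, two-sided, Benjamini-Hochberg over 28801 tested regions, threshold 0.05), tested on simulated data. DESeq2 1.42.0 and loess offsets (limma 3.58.1) were alternatives. The common biological coefficient of variation was 0.191, and errors cover the spread between libraries only. Groups and replicate numbers came from the sample titles. Start windows and gene types came from RefSeq tables (GRCm38.p6).

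The regions and gene lists were chosen with earlier results of these data known. Named were the 10 largest called rises and the 10 largest called falls with groups that do not overlap (predicted genes skipped), the 6 highest counts and up to 4 regions of smallest p for each gene list, of which 1 is not reported here. Figures were drawn with matplotlib 3.10.9.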

Additional observations from a re-analysis of the deposited data

How the results depend on the processing

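The count of rises (10) stayed within 1.5 times, and the median log2 fold change (-0.08) within the spread between replicates (0.043), under DESeq2 size factors in edgeR, scaling on nuclear regions, the loess offset, no filter, a mean of at least 50 counts, the DESeq2 Wald test and distance limits of 1000 or 5000 bases. Falls (7) numbered 33 under the loess offset on abundance, 24 where the mean had to reach 50 counts and 4 by the DESeq2 Wald test, and stayed within 1.5 times under the other settings of that list. Scaled by library size alone, 346 rose and 0 fell, the class median was 0.89 beside 0.97 for all regions, and the log2 fold change turned to 0.063 at Fos, 0.146 at Msi1, 0.042 at Id4 and 0.212 at Pisd. Regions with lower values and no call turned higher and passed, at 0.402 for Nrg1, 0.536 for the Wnt7b region 53.0 kb away, 0.556 for Pcmtd1, 0.6 for Ptch1, 0.729 for Nr4a3, 0.745 for Tbx2, 0.808 for Epha7, 0.863 for Sema6a and 0.881 for Zfp958. Among regions whose peaks have a -log10 q of at least 5 in all 4 lists, 248 were tested, and 6 rose and 4 fell. That is 4.03% called, beside 2.95% of all tested orphan islands. The cause of the shifts between settings was not tested.

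Leaving out 1 library gave between 0 and 67 rises, between 0 and 90 falls and class medians between -0.11 and -0.05. The single library left in a group was assumed to vary like the other group. Without Fgf13cko 1 the counts were 23 and 68, without Fgf13cko 2 they were 67 and 90, without control 1 they were 1 and 0, and without control 2 they were 0 and 0 (edgeR).

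With the replicate block 10 rose and 15 fell. Deviations of same-numbered libraries ran against each other (r = -0.24 over all tested regions and -0.118 over orphan islands). No label ties the numbers to a litter or day, and a correlation over regions of 4 libraries cannot exclude such a tie. With the crossed replicate block, added after seeing the data, 16 rose and 28 fell. Without the regions within 2000 bases of a RefSeq start, also added after seeing the data, 8 rose and 7 fell. Of single calls, Mir9-3hg missed the threshold with DESeq2 size factors (adjusted p = 0.0504, edgeR) and the replicate block (0.0539), and Hip1 (0.0525) and 1700044C05Rik (0.053) missed it on nuclear regions only. Regions described as not passing gained a call in some settings: Arid1a with the loess offset (0.0126), a mean of 50 counts (0.0213) and the crossed block (0.0239), Nrg1 with the loess offset (0.0268) and a mean of 50 counts (0.0413), and the Id3 region downstream of its start with the loess offset (0.0464, edgeR). GC offsets, alone or with the block, were not run because no genome was used here. Depth limits small changes: the median orphan island held 61.5 to 82 tags a library.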

Other observations

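A further 3 CpG-annotated regions away from starts lie on Y or an unplaced scaffold and were outside the class. The one nearest to G530011O06Rik on Y held 819 and 648 tags in Fgf13cko and 663 and 810.5 in controls, and the others, nearest to Erdr1 and Il11ra2, held 0 in all 4 libraries.

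Near the repeated small RNA gene Rn4.5s 5 regions were annotated, of which 3 were too low to test, and copies of such repeats can share reads, so their counts are uncertain.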
